A study of Mus musculus with 8 samples.

Results

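The antiviral effector genes described here are 10 interferon-stimulated genes of the mouse, Isg15, Isg20, Mx1, Mx2, Rsad2, Usp18, Cmpk2, Xaf1, Zbp1 and Bst2, taken by name from the 56748 genes of a count table. They were measured by bulk RNA sequencing of spleen Ly6Chigh monocytes, the classical or inflammatory monocyte class of mice, isolated by flow cytometry. There were 4 libraries from Olfr2 KO animals and 4 from WT animals, and every library of both groups was taken at day 7 after an aneurysm had been induced, so no uninjured animals enter the comparison. Olfr2 encodes an olfactory receptor, and the labels give no strain, age or sex, no method of induction and no statement on whether each library came from a separate animal. The p-values therefore measure the spread between these libraries, which may be technical.

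Type I interferons bind the receptor pair Ifnar1 and Ifnar2, whose kinases phosphorylate Stat2. With Irf9 it is part of the factor ISGF3, which binds the interferon-stimulated response element (ISRE) in the promoters of many target genes. The effectors among those targets act at different steps of a virus's life: they block entry and release, degrade viral nucleic acid or derail its copying, tag proteins with the ubiquitin-like ISG15, or trigger death of the infected cell. Monocytes carry many of these transcripts at low level without infection and raise them when interferon is present.

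Total counts lay between 17258427 and 21728794 in the KO libraries and between 16111725 and 19048245 in the WT libraries. A filter on low counts left 11222 genes to test, all 10 effectors among them. The targeted gene, Olfr2, had 0 counts in all 8 libraries, which gives no check on the genotypes. By their column numbers the libraries form a 1600 series (KO 1, KO 2, WT 1 and WT 2) and a 1700 series (KO 3, KO 4, WT 3 and WT 4), and the labels give no meaning for them. KO 1 and KO 2 stood apart from the other libraries in the summed neutrophil and conventional dendritic cell markers, the latter led by Cd209a. Both sums are given below, and calls that were lost without KO 1 or KO 2 are given as such. All 9 markers of classical monocytes were present, with summed levels of 137700 to 178300 CPM (counts scaled to library size with TMM factors) in KO and 114800 to 133000 CPM in WT. Lyz2 led these sums. Of the 9 markers only Chil3 had KO and WT ranges apart, at 17380 to 44050 CPM in KO and 6823 to 12300 CPM in WT.

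Promoter sequence was at hand in RefSeq (GRCm38.p6) for 6 of the 10 genes, Isg15, Isg20, Bst2, Xaf1, Rsad2 and Cmpk2. Each window ran from 250 bases before to 50 bases after the transcription start. The core of the ISRE was searched on either strand as GAAA, any 2 bases and GAAA again, where copies may overlap. It was present in 3 of these 6 genes, against 1079 of all 27025 genes with a window (3.99%) and 35 of 71 other interferon-stimulated genes with a window. A gene was counted if any of its windows held a match. The 250 bases before the start are printed for these 3 genes and for Cmpk2, the neighbour of Rsad2, to show where the motif lies; capitals mark the matches. The Isg15 sequence is chr4:156200819-156201068 (minus strand), that of Bst2 chr8:71537473-71537722 (minus), that of Rsad2 chr12:26456453-26456702 (minus) and that of Cmpk2 chr12:26468965-26469214 (plus), each 5′ to 3′ toward the gene.
Isg15: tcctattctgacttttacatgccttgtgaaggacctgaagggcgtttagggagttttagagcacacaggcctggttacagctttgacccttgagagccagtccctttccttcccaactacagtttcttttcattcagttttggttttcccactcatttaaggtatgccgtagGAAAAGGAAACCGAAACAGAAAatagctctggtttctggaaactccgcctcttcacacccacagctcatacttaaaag
Bst2: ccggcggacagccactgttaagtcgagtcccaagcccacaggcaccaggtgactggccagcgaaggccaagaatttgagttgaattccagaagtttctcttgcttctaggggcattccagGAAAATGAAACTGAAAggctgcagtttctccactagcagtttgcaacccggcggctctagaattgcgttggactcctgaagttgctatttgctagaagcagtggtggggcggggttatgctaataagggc
Rsad2: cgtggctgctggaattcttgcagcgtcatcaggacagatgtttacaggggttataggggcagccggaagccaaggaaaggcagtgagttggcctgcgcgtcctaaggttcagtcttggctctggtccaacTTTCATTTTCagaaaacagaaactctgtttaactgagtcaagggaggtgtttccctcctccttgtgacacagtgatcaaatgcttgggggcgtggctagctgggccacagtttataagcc
Cmpk2: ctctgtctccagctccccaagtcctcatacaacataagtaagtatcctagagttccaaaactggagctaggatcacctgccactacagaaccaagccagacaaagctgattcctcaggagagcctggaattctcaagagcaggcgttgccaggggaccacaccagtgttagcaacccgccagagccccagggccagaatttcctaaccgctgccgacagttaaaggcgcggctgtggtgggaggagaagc
Isg15 held 3 overlapping copies between bases -78 and -57, counted from the start. Bst2 held 2 overlapping copies between -130 and -115. Rsad2 held 1 copy on the opposite strand, between -120 and -111. These letters were not in the window of Cmpk2, Xaf1 or Isg20. Of the other motifs searched, GAAA with any 1 base before a further GAAA was present in Isg15 and Xaf1 and in 3.70% of all genes with a window. TTC with any 3 bases before GAA was present in Isg20 and Bst2 and in 9.55% of these genes. A match is a description of the sequence, not evidence of a factor bound there.

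Bst2 (ENSMUSG00000046718; GRCm38 chromosome 8, 71534255 to 71537456, minus strand), which encodes tetherin, the membrane protein that holds budding virions at the cell surface, was lower in KO monocytes. It measured 140, 92.4, 133 and 132 CPM in KO 1 to 4, against 194, 182, 212 and 223 CPM in WT 1 to 4. Every KO library lay below every WT library, which held for no other effector and for 6.06% of all tested genes (5.35% had the opposite order). The means were 124 ± 21.4 CPM in KO and 203 ± 18.4 CPM in WT (SD, n = 4 each), a log2 difference of -0.71 ± 0.14 (SE; edgeR quasi-likelihood test, Benjamini-Hochberg adjusted p = 0.0377). Bst2 was the only effector of the 10 to pass the adjusted p of 0.05 in this comparison, in which 1.06% of all tested genes passed in either direction, 0.838% were lower and 0.223% were higher.

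The Bst2 difference was negative in both number series. It was -0.69 ± 0.17 (SE) in the 1600 series (edgeR adjusted p = 0.0645) and -0.72 ± 0.17 in the 1700 series (edgeR adjusted p = 0.0575), from a fit over all 8 libraries with genotype and series as groups. The difference between these values was -0.03, with a 95% interval from -0.56 to 0.51 (edgeR adjusted p = 0.978). The 1600 value was -0.43 without KO 2 and -1.02 without KO 1, and with offsets for transcript length and GC content the values were -0.87 in the 1600 series and -0.45 in the 1700 series. The overall call was lost, with the direction kept, without KO 1 and KO 2 together (-0.61, edgeR adjusted p = 0.110), without KO 2, KO 3, WT 1, WT 3 or WT 4 in turn (edgeR adjusted p from 0.0892 to 0.142), with limma-voom (adjusted p = 0.0788) and with the offsets (edgeR adjusted p = 0.0947). In bulk RNA, fewer cells of a type that carries a transcript and less of it per cell cannot be told apart, here and in all results that follow.

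**Figure D1:**
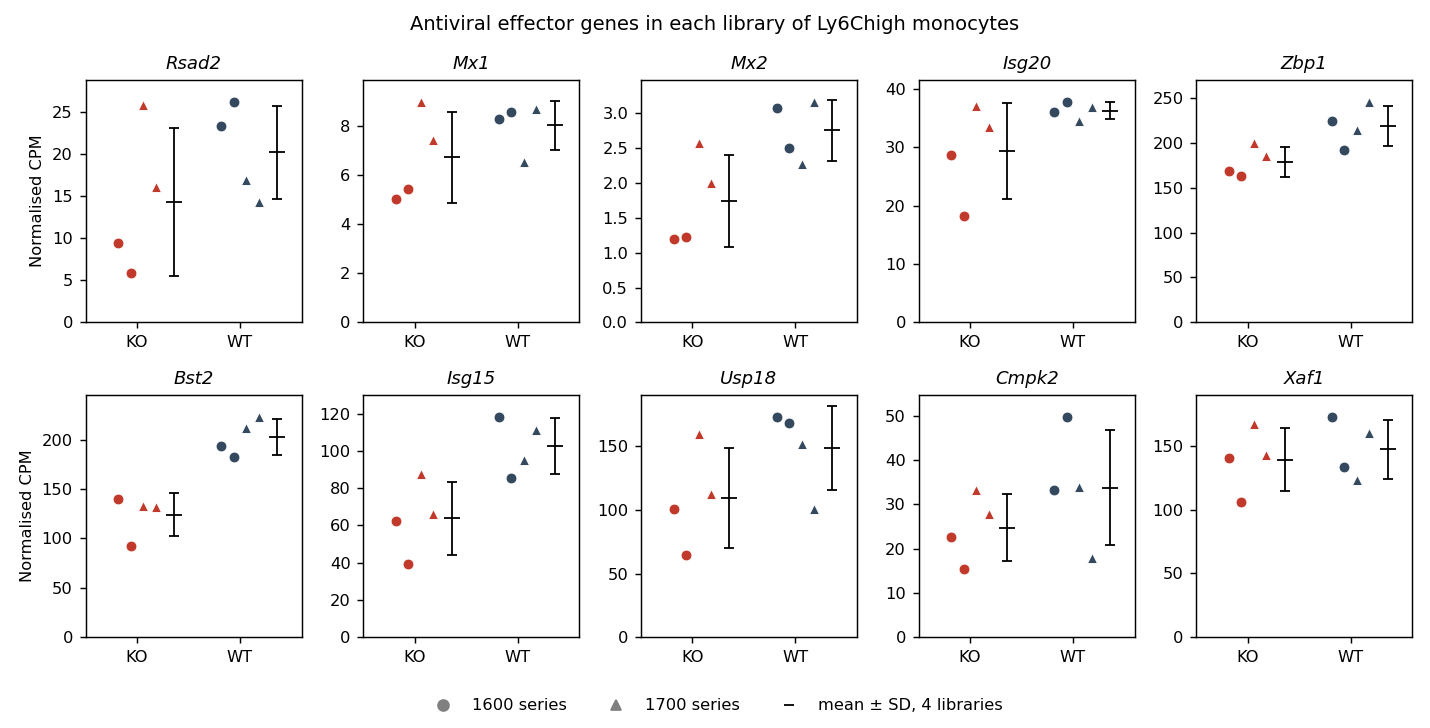
Normalised level (CPM, y axis from 0) of each of the 10 effector genes in the 4 KO and 4 WT libraries; circles are the 1600 series, triangles the 1700 series, and bars the mean ± SD of 4 libraries. The KO points of Bst2 all lie below the WT points, whereas for 7 genes KO 1 and KO 2 are the lowest of the 8 libraries. The share of all tested genes with KO 1 and KO 2 lowest was not counted.

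Isg15 (ENSMUSG00000035692; chromosome 4, 156199424 to 156200818, minus strand) encodes the ubiquitin-like protein that is joined to viral and host proteins and is also secreted. It measured 62.6, 39.5, 87.4 and 66.1 CPM in KO 1 to 4, against 118, 85.2, 95.1 and 111 CPM in WT 1 to 4. KO 3 lay just above WT 2, and the other 3 KO libraries lay below all WT libraries. The log2 difference was -0.68 ± 0.20 (SE, edgeR adjusted p = 0.101) and did not pass. It was -0.995 ± 0.24 in the 1600 series (edgeR adjusted p = 0.0689) and -0.43 ± 0.24 in the 1700 series (edgeR adjusted p = 0.318). Of its stretches of 50 bases, 3.96% also occur in the gene model AC151275.1, where reads are uncertain.

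Usp18 (ENSMUSG00000030107; chromosome 6, 121245906 to 121270917, plus strand) encodes the protease that removes ISG15 from proteins and that also damps signalling at Ifnar2. It measured 100.5, 64.4, 159 and 112 CPM in KO 1 to 4, against 173, 168, 152 and 101.0 CPM in WT 1 to 4. The 2 lowest values were those of KO 2 and KO 1, and WT 4 lay close to KO 1, so the groups overlapped. The log2 difference was -0.44 ± 0.26 overall (SE, edgeR adjusted p = 0.356), -1.05 ± 0.26 in the 1600 series (edgeR adjusted p = 0.0821) and 0.10 ± 0.26 in the 1700 series (edgeR adjusted p = 0.848). Usp18 shares 124 exon bases with the antisense gene model Gm44148, and without a stated strand setting reads from the pair cannot be told apart.

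The remaining enzymes of ISG15 conjugation, Uba7 (activating), Ube2l6 (conjugating), Herc6 (the main mouse ligase) and Trim25, were all tested. None passed over all 8 libraries or in the 1600 series, and Trim25 was lower in the 1700 series, with 10.1 and 10.3 CPM in KO 3 and KO 4 against 25.1 and 28.9 CPM in WT 3 and WT 4 (log2 difference -1.40 ± 0.30, SE, edgeR adjusted p = 0.0462). The call was lost with the offsets and without any of 6 libraries in turn, KO 1, KO 2, KO 3, KO 4, WT 3 and WT 4 (edgeR adjusted p from 0.0507 to 0.340). In the 1600 series Trim25 measured 15.99 and 13.7 CPM in KO 1 and KO 2 and 24.2 and 11.6 CPM in WT 1 and WT 2.

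Rsad2 (ENSMUSG00000020641; chromosome 12, 26442746 to 26456452, minus strand) encodes viperin, a radical SAM enzyme that turns CTP into a chain-terminating analogue. It measured 9.46, 5.91, 25.8 and 16.2 CPM in KO 1 to 4, against 23.4, 26.3, 16.9 and 14.3 CPM in WT 1 to 4. KO 1 and KO 2 were the lowest libraries, and KO 3 lay close to the highest WT library. Over all libraries the log2 difference was -0.49 ± 0.42 (SE, edgeR adjusted p = 0.540), the largest SE among the effectors.

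Within the 1600 series Rsad2 was lower in KO by -1.69 ± 0.28 on the log2 scale (SE, edgeR adjusted p = 0.0211). It was the only effector called there, where 1.85% of all tested genes were called, 0.713% lower and 1.14% higher. In the 1700 series the log2 difference was 0.43, with a 95% interval from -0.16 to 1.01 (edgeR adjusted p = 0.369). The genotype difference itself differed between the series by 2.12 ± 0.39 (1700 minus 1600, SE, edgeR adjusted p = 0.0400). Rsad2 was the only effector so called, against 0.784% of all tested genes in either direction 0.312% with a higher and 0.472% with a lower difference in the 1700 series. The 1600 call was lost without KO 2 (-1.39, edgeR adjusted p = 0.294), without WT 1 (edgeR adjusted p = 0.0654) and without WT 2 (edgeR adjusted p = 0.0727). The call between series was lost with the length and GC offsets (1.84, edgeR adjusted p = 0.0921) and without KO 2, KO 3, KO 4, WT 1, WT 2 or WT 3 in turn (edgeR adjusted p from 0.0716 to 0.169).

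Cmpk2 (ENSMUSG00000020638; chromosome 12, 26469204 to 26479837, plus strand), a mitochondrial nucleotide kinase that supplies CTP, lies 12751 bases from Rsad2 and is transcribed away from it. It measured 22.7, 15.3, 33.2 and 27.7 CPM in KO 1 to 4, against 33.3, 49.8, 34.0 and 18.0 CPM in WT 1 to 4. The groups overlapped, since WT 4 lay below KO 1, KO 3 and KO 4, and WT 2 was the highest library. The log2 difference was -0.45 ± 0.31 overall (SE, edgeR adjusted p = 0.430), -1.13 ± 0.33 in the 1600 series (edgeR adjusted p = 0.106) and 0.23 ± 0.32 in the 1700 series (edgeR adjusted p = 0.714), so both neighbours had a negative difference in the first and a positive one in the second, with only that of Rsad2 in the 1600 series past the threshold.

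Isg20 (ENSMUSG00000039236; chromosome 7, 78913424 to 78920396, plus strand) encodes an exonuclease that degrades single-stranded RNA. It measured 28.6, 18.3, 37.0 and 33.5 CPM in KO 1 to 4, against 36.01, 37.8, 34.4 and 36.8 CPM in WT 1 to 4. The WT libraries were the most even of any effector, with a highest level 1.096 times the lowest, whereas for Cmpk2 that ratio was 2.77. KO 2 and KO 1 lay below all others, and KO 3 and KO 4 lay close to WT. The log2 difference was -0.30 ± 0.18 overall (SE, edgeR adjusted p = 0.364), -0.65 ± 0.21 in the 1600 series (edgeR adjusted p = 0.121) and -0.01 ± 0.21 in the 1700 series (edgeR adjusted p = 0.975). Without KO 2 the first and the second of these were -0.13 and -0.37.

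Mx1 (ENSMUSG00000000386; chromosome 16, 97447035 to 97462907, minus strand) and Mx2 (ENSMUSG00000023341; chromosome 16, 97535308 to 97560900, plus strand) encode dynamin-like GTPases that block incoming virus particles, and lie 72400 bases apart. Many laboratory strains carry inactive alleles, and the annotation lists Mx2 as a polymorphic pseudogene. Mx1 measured 5.03, 5.41, 8.97 and 7.43 CPM in KO 1 to 4, against 8.27, 8.54, 6.54 and 8.69 CPM in WT 1 to 4. Mx2 measured 1.20, 1.23, 2.57 and 2.00 CPM in KO 1 to 4, against 3.08, 2.50, 2.27 and 3.16 CPM in WT 1 to 4.

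For both Mx genes KO 1 and KO 2 were the lowest libraries, and KO 3 and KO 4 lay closer to or within the WT range, with KO 3 the highest library for Mx1. The Mx1 log2 difference was -0.25 ± 0.21 (SE, edgeR adjusted p = 0.526) and that of Mx2 -0.64 ± 0.29 (SE, edgeR adjusted p = 0.231). In the 1600 series these were -0.69 ± 0.25 and -1.20 ± 0.37, and in the 1700 series 0.11 ± 0.25 and -0.25 ± 0.34, none past the threshold. Mx2 was the scarcest effector, with 20 counts in each of KO 1 and KO 2, for which counting alone gives an exact Poisson 95% interval from 12.2 to 30.9. The 2 genes share 159 stretches of 50 identical bases, 4.77% of those in Mx1 and 6.55% of those in Mx2, so that their counts are uncertain where reads fall there.

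Zbp1 (ENSMUSG00000027514; chromosome 2, 173206612 to 173218923, minus strand) encodes a sensor of Z-form nucleic acid that starts necroptosis through Ripk3. It measured 169, 162, 199 and 185 CPM in KO 1 to 4, against 224, 192, 214 and 246 CPM in WT 1 to 4. KO 3 lay above WT 2, and the other KO libraries lay below all WT libraries. The log2 difference was -0.29 ± 0.12 overall (SE, edgeR adjusted p = 0.183), -0.33 ± 0.14 in the 1600 series (edgeR adjusted p = 0.217) and -0.26 ± 0.14 in the 1700 series (edgeR adjusted p = 0.285).

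Xaf1 (ENSMUSG00000040483; chromosome 11, 72301629 to 72313733, plus strand) encodes a pro-apoptotic partner of the caspase inhibitor XIAP. It measured 141, 106, 167 and 143 CPM in KO 1 to 4, against 173, 133, 123 and 160 CPM in WT 1 to 4. Only KO 2 lay below the WT libraries, and the log2 difference was -0.08 ± 0.15 (SE), with a 95% interval from -0.41 to 0.25 (edgeR adjusted p = 0.796). Xaf1 was the one effector whose KO and WT libraries overlapped within the 1600 series, where its log2 difference was -0.31 ± 0.19 (SE, edgeR adjusted p = 0.401). Of its stretches of 50 bases, 2.94% also occur in Zan or Gm29761.

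Set side by side, the 10 effectors had a median log2 difference of -0.45 over all libraries, against -0.0038 for all tested genes, and all 10 differences were negative, with only Bst2 past the threshold. In the 1600 series the median was -0.84, against -0.04 for all tested genes, again with 10 negative differences. In the 1700 series it was 0.04, against -0.01 for all tested genes, with 5 negative and 5 positive differences. An unadjusted p under 0.05 was reached by 4, 9 and 1 of the 10 in these comparisons, and by 20.9%, 19.5% and 22.7% of all tested genes. In the 1700 series edgeR called 0 effectors, against 1.38% of all tested genes, 1.1% lower and 0.276% higher, and DESeq2 called 1 effector, against 6.74% of all tested genes. Without KO 1 and KO 2, the median over the remaining libraries was -0.13. Leaving out KO 2 alone moved the all-library difference by over 1.5 times for 6 of the 10 (Isg20, Mx1, Rsad2, Usp18, Cmpk2 and Xaf1).

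Within the 1600 series both KO libraries lay below both WT libraries for 9 of 10 effectors, and 26.7% of all tested genes did so, with 25.6% in the opposite order. Within the 1700 series this held for 3 of 10, Isg15, Zbp1 and Bst2, and for 28.3% of all tested genes, and the opposite order held for 0 of 10 and 27.3%. KO 1 and KO 2 were the 2 lowest of the 8 libraries for 7 effectors (Isg15, Isg20, Mx1, Mx2, Rsad2, Usp18 and Zbp1). KO 2 was the lowest library for 8 effectors and KO 1 for the other 2, Mx1 and Mx2. The share of all tested genes with KO 1 and KO 2 in these places was not counted. WT 4 was the lowest WT library for Rsad2, Usp18 and Cmpk2 and the highest for Mx1, Mx2, Zbp1 and Bst2, so the WT libraries did not share one order.

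**Figure D2:**
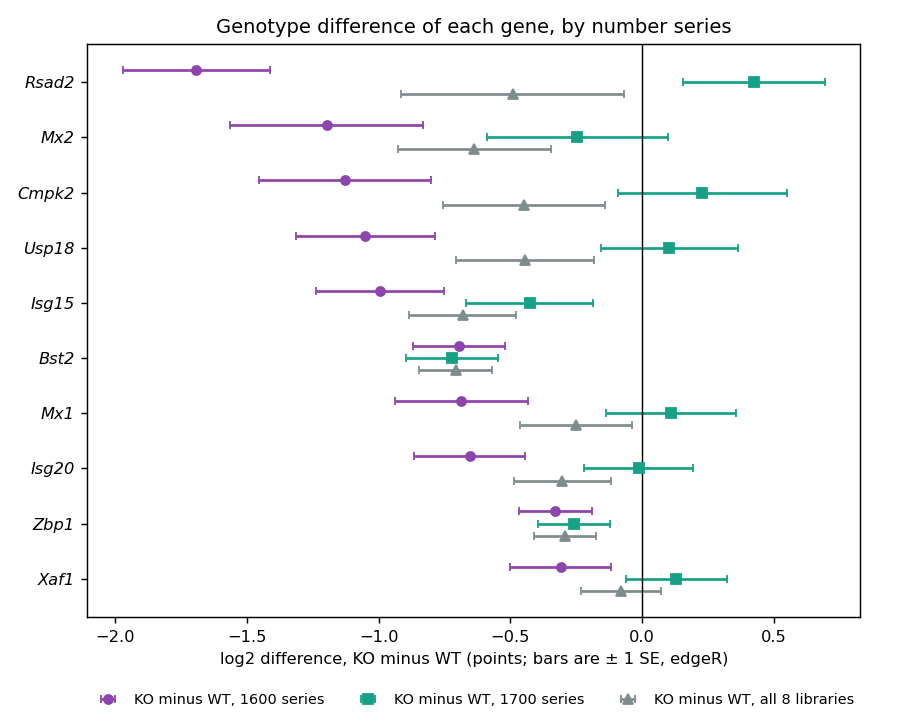
Log2 difference between KO and WT monocytes (x axis, KO minus WT) for each effector gene, as estimates ± 1 SE from edgeR within the 1600 series, within the 1700 series and over all 8 libraries. Rsad2 ranges from -1.69 to 0.43 between the series, while the 3 estimates of Bst2 lie between -0.69 and -0.72.

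Per kilobase of exon, the level of Bst2 was the highest, with 138 ± 23.7 CPM per kb in KO and 225 ± 20.4 CPM per kb in WT (SD, n = 4 each). Isg15 followed with 84.5 ± 25.9 in KO and 136 ± 19.98 in WT, then Zbp1, Usp18, Xaf1 and Isg20 in that order. Divided by the longest transcript instead, Usp18 lay above Zbp1, with 72.8 against 59.8 CPM per kb over the 8 libraries. Cmpk2, Rsad2 and Mx1 averaged 5.94, 3.31 and 1.77 CPM per kb in KO and 8.11, 4.67 and 2.12 CPM per kb in WT. Mx2 was lowest, at 0.484 CPM per kb in KO and 0.762 CPM per kb in WT. In WT the ranges of neighbours in this order overlapped for Zbp1 and Usp18, Usp18 and Xaf1, and Cmpk2 and Rsad2. In KO they overlapped for these pairs and also for Bst2 and Isg15, Isg15 and Zbp1, and Rsad2 and Mx1.

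Upstream of the effectors, the interferon genes themselves were at or near 0. Of 13 ligand genes, 10 had 0 counts in every library, which allows up to 0.139 to 0.184 CPM in KO and up to 0.147 to 0.186 CPM in WT for counting error only. Ifnb1, Ifnk and Ifng reached at most 0.0929, 0.0599 and 0.0621 CPM in any library. None of the 8 tested receptor and kinase genes passed in any comparison by edgeR, with 0, 0, 3 and 3 at an unadjusted p under 0.05 over all libraries, in the 1600 series, in the 1700 series and between series. Ifnar1 averaged 28.6 ± 4.67 CPM in KO and 27.5 ± 6.13 CPM in WT (SD, n = 4 each), and Ifnar2 121 ± 20.2 CPM in KO and 113 ± 11.9 CPM in WT.

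Of the 8 transcription factor genes only Stat2 was called by edgeR, lower in KO within the 1600 series, where 0.713% of all tested genes were lower. All 8 differences were negative over all libraries (median -0.34) and in the 1600 series (median -0.72), and 5 of 8 in the 1700 series (median -0.17). Stat2 measured 2.58, 1.91, 3.97 and 4.04 CPM in KO 1 to 4, against 6.88, 5.64, 5.40 and 8.44 CPM in WT 1 to 4. Every KO library lay below every WT library, as for 6.06% of all tested genes. Its log2 difference was -1.48 ± 0.32 in the 1600 series (SE, edgeR adjusted p = 0.0410), -0.79 ± 0.30 in the 1700 series (edgeR adjusted p = 0.153) and -1.06 ± 0.26 overall (edgeR adjusted p = 0.0611). The 1600 call was lost with limma-voom, with the offsets, in a fit of the 4 libraries of that series alone and without any library in turn but WT 3 or WT 4 (without KO 2, edgeR adjusted p = 0.427). Irf9 averaged 134 ± 17.3 CPM in KO and 138 ± 25.2 CPM in WT (SD, n = 4 each; edgeR adjusted p = 0.889). Irf7, which amplifies interferon production, averaged 146 ± 39.1 CPM in KO and 238 ± 24.3 CPM in WT (SD; edgeR adjusted p = 0.0740) and did not pass. None of 14 tested genes of nucleic acid sensing and none of 6 tested feedback inhibitors passed in any of the 4 comparisons by edgeR. An unadjusted p under 0.05 was reached by 1, 3, 5 and 5 of the sensing genes and by 1, 1, 2 and 2 of the inhibitors, against 20.9%, 19.5%, 22.7% and 16.1% of all tested genes. Of the 8 transcription factor genes 4, 6, 1 and 3 reached it.

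A list of 86 other interferon-stimulated genes, 83 of them tested, gave the wider setting. Over all libraries 6 were lower in KO and 0 higher, with a median log2 difference of -0.22 and 64 negative differences, against 0.838% of all tested genes lower. The count was 0 with limma-voom, with the offsets, without KO 1 and KO 2 together and without KO 2, KO 3, WT 1, WT 3 or WT 4 in turn, and 2 without KO 1. Tap1, the peptide transporter of antigen presentation, averaged 57.3 ± 10.7 CPM in KO and 110 ± 17.2 CPM in WT (SD, n = 4 each; edgeR adjusted p = 0.0341). Oas3, an oligoadenylate synthetase, averaged 2.63 ± 0.68 CPM in KO and 6.83 ± 1.41 CPM in WT, and Slfn5, of the Schlafen family, 4.37 ± 0.25 CPM in KO and 14.4 ± 5.83 CPM in WT (edgeR adjusted p = 0.0341 each).

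In the 1600 series 12 of the 83 were lower, Stat2 among them, and 0 higher, against 0.713% of all tested genes lower, and the median was -0.52. The count was 1 without KO 2, 3 without WT 1, 2 without WT 2, 7 without KO 3, 6 without KO 4 and 7 in a fit of that series alone. Ifit2, which binds viral RNA, had a log2 difference of -2.17 ± 0.33 there (SE, edgeR adjusted p = 0.0164), and Phf11d -1.39 ± 0.20 (edgeR adjusted p = 0.0116); both calls were lost without KO 2 or without WT 2. In the 1700 series 1 was lower, Ifi27l2a (-0.82 ± 0.17, edgeR adjusted p = 0.0395), and 1 higher, Cxcl10, against 1.1% of all tested genes lower and 0.276% higher, and the median was 0.12. Cxcl10, a chemokine for T cells, measured 15.6, 12.6, 53.5 and 51.5 CPM in KO 1 to 4, against 60.4, 58.0, 27.7 and 26.1 CPM in WT 1 to 4. It was thus lower in KO in the 1600 series (log2 difference -2.07 ± 0.17, SE, edgeR adjusted p = 0.000476) and higher in KO in the 1700 series (0.96 ± 0.17, edgeR adjusted p = 0.0334). The 1700 calls of Cxcl10 and Ifi27l2a were lost with the offsets and without KO 3, KO 4 or WT 3. The genotype difference differed between the series for 5 of the 83 genes, all higher in the 1700 series: Cxcl10, Ifit2, Phf11d, Igtp and Irgm1. Of all tested genes 0.312% were higher and 0.472% lower in this comparison. That count was 1 with the offsets and without KO 2, KO 3, KO 4, WT 2 or WT 3 in turn, 2 without WT 1 and 27 without WT 4. A negative difference in the 1600 series with a positive one in the 1700 series occurred in 5 of 10 effectors, 43 of 83 other interferon-stimulated genes and 22.5% of all tested genes.

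**Figure D3:**
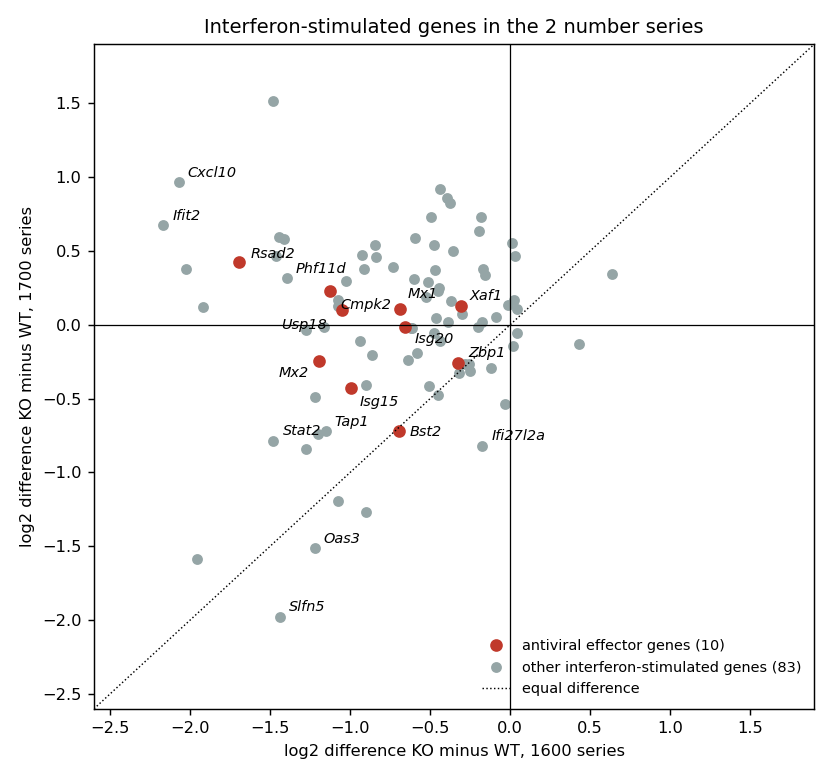
Log2 difference KO minus WT in the 1600 series (x axis) against that in the 1700 series (y axis) for the 10 effector genes (red) and 83 other interferon-stimulated genes (grey); each point is a gene, and the dotted line marks equal differences. Of the 83, Iigp1 (-2.155 and 2.083), Ifi208 (-3.722 and 0.5485) and Ifitm1 (2.227 and -0.5281) lie beyond the axes and are not drawn. All 10 effectors lie left of 0 on the x axis, and 5 of them lie above 0 on the y axis.

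The effectors' median profile over the 8 libraries was compared with 5443 genes of at least 10 CPM, by the mean absolute distance of centred log2 CPM. Asph, Tpst1, Niban1, Fam241a, Rtp4, Timp2, Sema4d and Mcl1 were nearest, with distances from 0.0669 to 0.126 against a median of 0.329. Of these 8, only Rtp4 is in the list of interferon-stimulated genes, as were 7 of the 100 nearest and 57 (1.05%) of the 5443. Asph measured 9.22, 6.77, 14.1 and 13.5 CPM in KO 1 to 4, against 15.6, 13.5, 14.2 and 14.8 CPM in WT 1 to 4, an order that its choice by this profile fixes. Among the effectors Isg20 lay nearest to the median profile, at 0.0522, and Rsad2 farthest, at 0.318.

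Markers of other cells also differed between the libraries, not all in the same ones. The summed level of 10 neutrophil markers, all detected, was 2363, 3672, 768 and 587 CPM in KO 1 to 4, against 586, 389, 271 and 536 CPM in WT 1 to 4. Averaged over the libraries Mmp8 led this sum, at 704, 819.5, 638 and 515 CPM in KO 1 to 4, against 524, 327, 229.5 and 432 CPM in WT 1 to 4. Ngp, a gene of immature neutrophils, measured 108 and 86.8 CPM in KO 1 and KO 2 and at most 1.54 CPM in the other 6 libraries. Conventional dendritic cell markers, 8 of 8 detected and led by Cd209a, summed to 153, 133, 602 and 546 CPM in KO 1 to 4, against 268, 494, 362 and 254 CPM in WT 1 to 4. Nonclassical monocyte markers, 10 of 10 detected, summed to 535, 384, 538 and 596 CPM in KO 1 to 4, against 651, 630, 537 and 605 CPM in WT 1 to 4, and Pou2f2, the 1 of them called lower, measured 0.0615 to 0.240 CPM in KO and 1.08 to 2.43 CPM in WT. KO 1 and KO 2 were thus highest for the neutrophil sum and lowest for the conventional dendritic cell sum. Of these dendritic cell markers only Cd209a was lowest in both KO 1 and KO 2. Flt3 measured 17.97 and 15.8 CPM in KO 1 and KO 2, against 11.7 to 17.75 CPM in WT. B cell markers summed to 204, 211, 362 and 307 CPM in KO 1 to 4, against 242.5, 372, 303 and 181 CPM in WT 1 to 4. The sums of T cell, NK cell, erythroid and platelet markers were at most 26.5 CPM in any library. The part of neutrophils, dendritic cells, nonclassical monocytes and these other cells in the effectors' levels was not tested.

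Bst2 also marks plasmacytoid dendritic cells, so that list was summed without it. Of its 10 other markers 7 were detected, and the defining marker Siglech was at 0 in every library, as were Klk1 and Atp1b1. The sum was 6.95, 6.09, 17.0 and 14.5 CPM in KO 1 to 4, against 12.1, 14.9, 12.9 and 12.5 CPM in WT 1 to 4. Most of it came from Cd209d and Tcf4, at 8.64 and 7.47 CPM in KO 3, and the part of these cells in the Bst2 level was not tested. The summed level of the 10 effectors was 679, 511, 853 and 725 CPM in KO 1 to 4, against 987, 885, 891 and 922 CPM in WT 1 to 4. Mitochondrial transcripts made up 0.517 to 0.626% of counts in KO and 0.504 to 0.640% in WT, overlapping ranges.

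**Figure D4:**
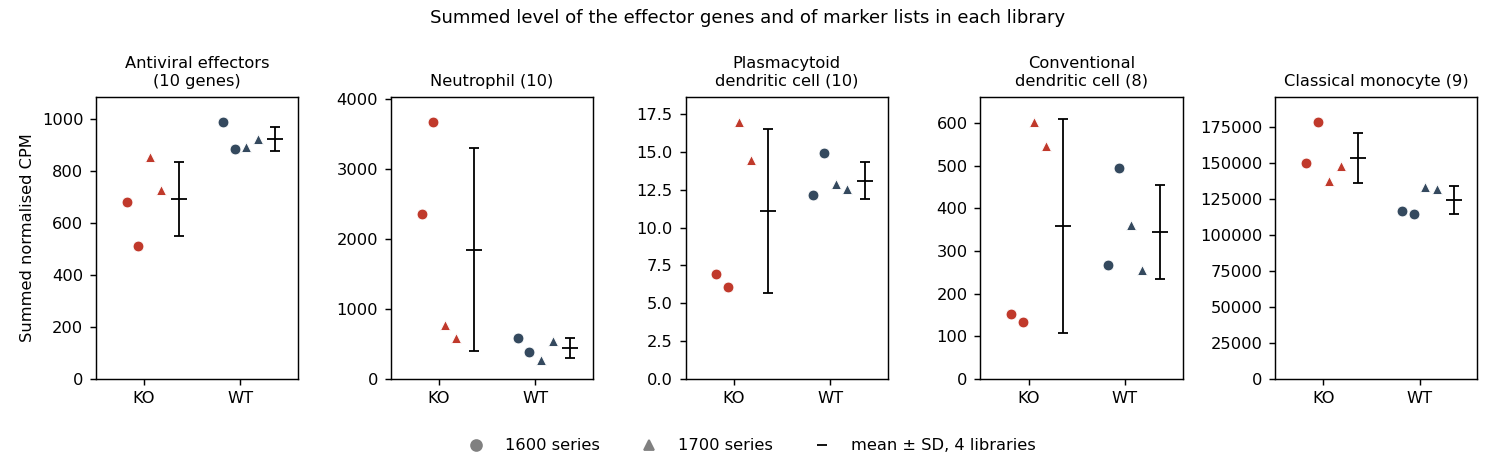
Summed level (CPM, y axis from 0) of the 10 effector genes and of 4 marker lists in the 4 KO and 4 WT libraries; circles are the 1600 series, triangles the 1700 series, and bars the mean ± SD of 4 libraries. KO 1 and KO 2 have the lowest effector sums and, at 2363 and 3672 CPM, the highest neutrophil sums.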

How the data were processed

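RNA of sorted monocytes was made into cDNA with oligo-dT priming, template switching and PCR by SMART-Seq v4, as stated per the labels. The values are raw counts, 1 table over 8 libraries, as the authors deposited them. Per the submitters' processing notes, the tools were HISAT2 2.0.5 and featureCounts 1.5.0-p3 on GRCm38. Settings, strand option and annotation: not given in the sources used here. Recovery may vary with transcript length after such priming and PCR, and reads without molecular identifiers are not independent, so intervals and floors cover counting error only. The number series were read from the column names given in the labels.

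The counts were tested with edgeR 4.0.16 in R 4.3.3 (filterByExpr, TMM, robust quasi-likelihood, Benjamini-Hochberg over 11222 genes at 0.05). The first fit compared 4 KO with 4 WT libraries. The second had 4 groups, genotype by series, and gave the contrasts within and between series. A count of 0 was read as allowing up to 3 counts. Normalised CPM values were computed from the counts. The alternatives were other normalizations and filters, DESeq2 1.42.0, limma-voom (limma 3.58.1), length and GC offsets (mgcv 1.9.3), covariates, left-out libraries and the threshold. Positions and lengths come from GENCODE on GRCm38, promoters from RefSeq GRCm38.p6. Profile distances used log2 CPM with a pseudocount of 1.

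The members and lists were chosen with earlier results of these data known. Named genes are the 10 members, up to 3 called genes per list and comparison by smallest p, Stat2, Irf9, Irf7, Ifnar1, Ifnar2 and the 8 nearest profiles; a gene that the rule also names is not reported here. Igtp and Irgm1 were named after their values were seen, to complete a count of 5, and the markers Ngp, Mmp8, Cd209a, Cd209d, Tcf4 and Pou2f2 to read their sums. The alternatives for the other interferon-stimulated genes and the called list genes were chosen after seeing the data.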

Additional observations from a re-analysis of the deposited data

Results flagged for a closer look

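The genotype difference of 4 named genes, besides Igtp and Irgm1 given above, differed between the number series, by the test of that difference. It was 2.12 on the log2 scale (1700 minus 1600) for Rsad2 (edgeR adjusted p = 0.0400), 3.03 for Cxcl10 (edgeR adjusted p = 0.000307), 2.84 for Ifit2 and 1.71 for Phf11d (edgeR adjusted p = 0.0369 each). For these 4 genes both KO libraries of the 1600 series lay below both WT libraries, as for 26.7% of all tested genes. In the 1700 series the order was the opposite for Cxcl10, Ifit2 and Phf11d but not for Rsad2, and for 27.3% of all tested genes. Cxcl10, Ifit2 and Phf11d were named for their small p in these comparisons. Their differences and orders thus largely follow from that choice and are no separate result. Rtp4, at 210 CPM in KO 2, lay far below the other 3 KO libraries (365 to 390 CPM). Rtp4 was examined as a gene near the effectors' median profile, which is lowest in KO 2, so its low level there follows in part from its choice. The summed red pulp macrophage markers, at 380 CPM in WT 4, lay far above the other WT libraries (218 to 235 CPM). Among 86 groups of 4 libraries examined by Dixon's ratio (the gap of the extreme library over the range) 2 stood out, where chance gives about 4.3.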

How the results depend on the processing

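For KO against WT, 119 genes were called by edgeR. The count was 742 with no filter on low counts (3.5% of genes tested), 784 with DESeq2 (6.99%), 0 with limma-voom, 251 with the number series as covariate (101 higher, 150 lower), 1 with length and GC offsets, 611 at a threshold of 0.1, 7 without KO 1 and KO 2, and 0 (without KO 2, KO 3, WT 1 or WT 3) to 515 (without WT 2) leaving out single libraries, with 64 without KO 1, 235 without KO 4 (139 higher, 96 lower) and 3 without WT 4. Of the effectors, 1 was called. The count was 2 with no filter and with DESeq2, 0 with limma-voom, with the offsets and without KO 1 and KO 2, and 0 to 1 leaving out single libraries. In the 1600 series 1 was called, against 6 with no filter (4.59% of genes tested), 5 with DESeq2 (5.36%), 3 with the offsets (1.63%) and 0 (without KO 2, WT 1 or WT 2) to 5 (without KO 1) leaving out single libraries. In the 1700 series 0 were called, against 1 with no filter (6.33%) or DESeq2 (6.74%) and 0 to 1 (without KO 1 or KO 2) leaving out single libraries. Between series 1 was called, against 3 with no filter (3.04%) or DESeq2 (4.02%), 0 with the offsets (0.0912%) and 0 to 1 leaving out single libraries. Of the other interferon-stimulated genes 6 were called over all libraries, against 10 with no filter, 0 with limma-voom, with the offsets and without KO 1 and KO 2, and 0 to 9 leaving out single libraries. In the 1600 series 12 were called, against 33 with no filter, 22 with DESeq2, 7 in a fit of that series alone and 1 to 13 leaving out single libraries. Within the 1700 series 2 were called, against 16 with no filter, 10 with DESeq2, 0 with the offsets and 0 to 19 leaving out single libraries, where the 19, without WT 4, were 18 higher and 1 lower. Between series 5 were called, against 25 with no filter, 18 with DESeq2, 1 with the offsets and 1 to 27 leaving out single libraries. The share of all tested genes called moved with the setting too. In the 1600 series it was 1.85%, against 4.59% with no filter, 5.36% with DESeq2 and 0.873% in the series alone. It was 1.38% in the 1700 series, against 6.33% and 6.74% with no filter and DESeq2. Between series it was 0.784%, against 3.04% and 4.02%. The counts of the list are to be read beside these shares. The cause of these changes was not tested.

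Some small, uncalled log2 differences changed sign. Over all libraries but KO 1 and KO 2, Mx1 was 0.045, Rsad2 0.061 and Xaf1 0.085, and leaving out single libraries Xaf1 ranged from -0.18 to 0.031. Within the 1700 series Isg20 was 0.017 with no filter, and with the offsets Isg20 was 0.33, Mx1 -0.14, Cmpk2 -0.11 and Xaf1 -0.12. Leaving out single libraries there, Mx1 ranged from -0.084 to 0.33, Xaf1 from -0.047 to 0.33, Isg20 from -0.089 to 0.051, Mx2 from -0.47 to 0.0082, Usp18 from -0.17 to 0.43 and Cmpk2 from -0.16 to 0.76. Between series Bst2 was 0.032 with no filter, 0.0041 with limma-voom and 0.41 with the offsets, and Zbp1 -0.086 with the offsets. Leaving out single libraries, Bst2 ranged from -0.29 to 0.30 and Zbp1 from -0.046 to 0.18.

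Same-numbered KO and WT libraries did not deviate together (correlations of -0.01, -0.03, -0.05 and 0.09). These values cannot show whether such libraries were handled as pairs, which the labels do not say. With the number as a replicate block 244 genes (143 higher, 101 lower) and 1 effector were called, and Bst2 was -0.72 (edgeR adjusted p = 0.0281). Depth limits Mx2 most, with 20 to 60 counts a library.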
